A study of Mus musculus with 15 samples.

Results

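The CC chemokines are small secreted proteins that draw leukocytes into tissue, and the 9 described here are Ccl2, Ccl3, Ccl4, Ccl5, Ccl6, Ccl7, Ccl8, Ccl9 and Ccl12. They were chosen by name as ligands that recruit myeloid cells and T cells, and were found among the 46679 genes of the files by matching the Ensembl identifier to its GENCODE symbol. All 9 were present and all 9 passed the filter on low counts, which 17481 genes passed. Their transcripts were measured in 15 samples, from naïve brain and from 4 brain tumor models.

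CC chemokines act through G protein-coupled receptors on leukocytes, and most of them bind more than one receptor. Ccl2, Ccl7 and Ccl12 are ligands of Ccr2, the receptor by which inflammatory monocytes leave the blood for inflamed tissue. Ccl8 of the mouse is a ligand of Ccr8, a receptor of subsets of T cells. Ccl3 and Ccl5 bind Ccr1, and Ccl6 and Ccl9 are rodent ligands of the same receptor. Ccl4 is a close relative of Ccl3. Microglia, macrophages, T cells, glia and tumor cells are all able to make some of these ligands.

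RNA came from end-stage tumors, taken when C57BL/6 mice reached the humane end-point, and from tumor-free (naïve) brain of the same strain. Each of the 5 groups held 3 mice. CT2A and GL261 are lines first induced by methylcholanthrene, 005 arose from activated H-ras and AKT in p53+/- mice, and Mut3 carries inactivated NF1 and p53, among other changes. Every tumor line also carried GFP and firefly luciferase as imaging markers, which naïve brain did not. Mice were 6 to 8 weeks old when cells were implanted and older at harvest, at an age not analysed here. The graft was 500000 cells for Mut3 and 100000 for the other lines, so the line cannot be told apart from the number of cells for Mut3. Each model rests on a single line, and the tissue is a mixture of tumor cells, brain cells and leukocytes.

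Total counts ranged from 3105119 to 13130158 per sample and were lowest in naïve brain, and 3 counts, taken as the smallest level these depths can show, corresponded to between 0.214 and 0.811 CPM (counting error only). CPM is the count scaled to a library of 1000000 by edgeR's TMM normalization. TPM, the authors' other scale, also corrects for transcript length and is used here to compare one gene with another. On the TPM scale every tumor lies lower against naïve brain than on the CPM scale, by 0.98 (CT2A), 0.81 (GL261), 0.60 (005) and 0.82 (Mut3) on the log2 scale. Directions against naïve brain are therefore given on both scales where they differ. A pair of 005 libraries stood apart: replicate 2, which held 261 CPM of Ptprc (CD45, the pan-leukocyte gene) against 46.2 and 50.1 in the others, and replicate 3, in which 6 neuron genes summed to 2917 CPM and mitochondrial genes took 17.8% of the counts. Some results of the chemokine genes that involve 005 are also given without replicate 2, without replicate 3 or without both. Other results that involve 005, among them those of the receptors and of the cell type genes, are given with all samples only.

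All 9 genes lie on chromosome 11 (GRCm38), in a pair of blocks 1.41 Mb apart. The first block of 81.2 kb holds, in order on the plus strand, Ccl2 (82035571 to 82037453), Ccl7 (82045712 to 82047525), Ccl12 (82101845 to 82103400) and Ccl8 (82115185 to 82116799). The second block of 138.9 kb holds Ccl5 (83525778 to 83530518), Ccl9 (83572919 to 83578636), Ccl6 (83587882 to 83593087) and Ccl3 (83647844 to 83649355) on the minus strand, and Ccl4 (83662584 to 83664683) on the plus strand. Ccl2 overlaps the annotated gene Gm17268 on the other strand and Ccl6 overlaps E230016K23Rik, and whether the authors' counting used strand is not given in the sources used here, so a share of their reads may belong to these partners.

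The 250 bases before the start site are shown for Ccl12 and Ccl8, neighbors in the first block whose levels differed between models, and for Ccl9 and Ccl6, neighbors in the second block that were both highest in 005. The sequences are those of RefSeq (GRCm38.p6), whose promoter table held 5 of the 9 genes, and lie at chr11:82101595-82101844 (Ccl12, plus), chr11:82114935-82115184 (Ccl8, plus), chr11:83578637-83578886 (Ccl9, minus) and chr11:83593088-83593337 (Ccl6, minus), each read 5′ to 3′ on its gene's strand. Capitals mark matches to the motifs searched on both strands, which are named after the sequences.
Ccl12: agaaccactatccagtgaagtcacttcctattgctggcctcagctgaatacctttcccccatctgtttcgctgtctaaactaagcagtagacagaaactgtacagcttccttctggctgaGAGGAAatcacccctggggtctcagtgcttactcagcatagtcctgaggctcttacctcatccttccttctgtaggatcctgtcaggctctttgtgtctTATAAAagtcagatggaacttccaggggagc
Ccl8: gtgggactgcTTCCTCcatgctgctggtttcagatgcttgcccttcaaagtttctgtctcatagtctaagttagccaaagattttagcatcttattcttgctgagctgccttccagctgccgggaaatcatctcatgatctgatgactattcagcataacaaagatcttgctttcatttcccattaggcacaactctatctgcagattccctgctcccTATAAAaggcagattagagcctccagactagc
Ccl9: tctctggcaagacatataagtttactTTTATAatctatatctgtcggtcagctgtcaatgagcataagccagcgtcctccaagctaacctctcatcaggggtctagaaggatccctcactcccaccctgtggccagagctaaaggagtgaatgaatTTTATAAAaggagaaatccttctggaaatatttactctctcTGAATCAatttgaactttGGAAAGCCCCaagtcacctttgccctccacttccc
Ccl6: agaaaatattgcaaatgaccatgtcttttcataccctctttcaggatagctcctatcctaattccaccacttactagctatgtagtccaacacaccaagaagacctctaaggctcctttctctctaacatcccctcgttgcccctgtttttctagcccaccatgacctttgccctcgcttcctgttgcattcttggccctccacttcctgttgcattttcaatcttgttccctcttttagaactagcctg

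The motifs searched were the kappaB consensus (found in 3.90% of 32851 promoters of the same length), the interferon-stimulated response element core (GAAA, any 2 bases, GAAA) (2.98%), AP-1 as TGANTCA (6.75%), the PU.1 core GAGGAA (23.3%) and TATAAA (12.4%). Counted from the start site, TATAAA began at -31 in Ccl12 and -32 in Ccl8, and each held 1 match to the PU.1 core, at -130 and -240. Ccl9 held a kappaB match at -35 and an AP-1 match at -53, with TATAAA matches at -94 and -92, which overlap each other, and at -224. Ccl6 held none of the motifs in this window, and the interferon-stimulated element was not found in the 5 genes. Ccl12 and Ccl8 were also the most alike of the 10 pairs that could be aligned, with 57.5% of aligned positions identical against 48.1% to 54.2% in the other pairs. These matches are letters in a window and were not tested against the levels.

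Per length of transcript, Ccl5 was the most abundant of the 9 genes in naïve brain, CT2A, GL261 and Mut3, whereas Ccl8 was the most abundant in 005. The summed TPM of the 9 genes was 177, 277 and 173 in the 3 naïve brains, 402, 429 and 614 in CT2A, 877, 433 and 634 in GL261, 710, 5519 and 1032 in 005, and 108, 156 and 190 in Mut3. Each CT2A, GL261 and 005 tumor thus lay above each naïve brain, and the Mut3 tumors overlapped naïve brain. In CT2A, Ccl5 made up 54.4% of the sum, Ccl12 17.4% and Ccl2 13.3%. In 005, Ccl8 made up 39.7% (33.4% to 49.9% by mouse) and Ccl5 35.2% (19.9% to 44.8%), so the order of these genes was not the same in each 005 tumor. Ccl8 held 3.69% in CT2A, 8.36% in GL261, 11.4% in Mut3 and 10.6% in naïve brain. Ccl2 held 30.6% in naïve brain and 17.9% in Mut3, against 5.24% to 13.3% in the other models. The least abundant was Ccl9 in all 5 groups. Shares and order depend on the length used. The deposited TPM imply a length of Ccl5 and Ccl8 of 0.350 of that of Ccl2, a value shared by 797 and 794 genes, where the annotated transcripts are at 0.654 and 0.629. With CPM per kilobase of the annotated transcript in place of TPM, the share of Ccl2 was 42.6% in naïve brain, 27.6% in Mut3 and 8.95% to 21.7% in the other models. On this scale Ccl2 came before Ccl5 in naïve brain (27.0%), where 3 of 9 genes had the same rank on both scales, while Ccl5 was first in CT2A, GL261 and Mut3 and Ccl8 in 005.

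**Figure D1:**
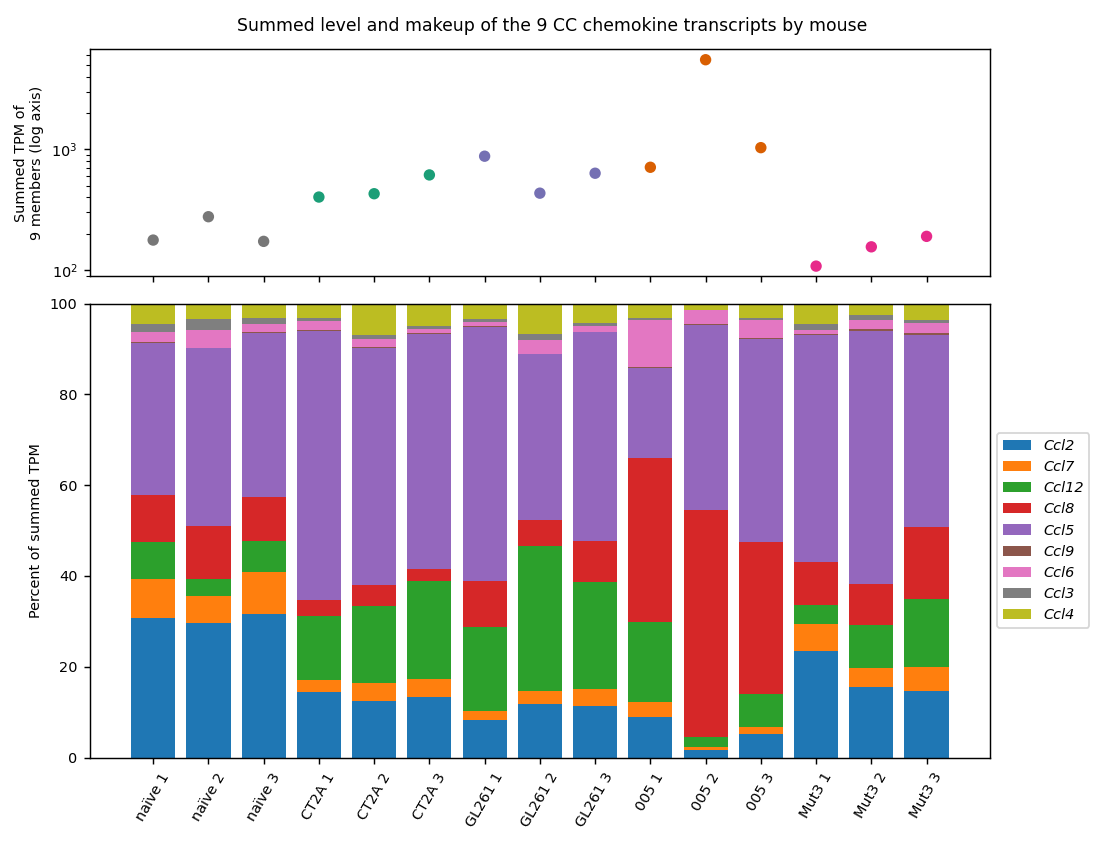
Summed TPM of the 9 CC chemokine genes in each mouse (top, log axis) and the percent of that sum that each gene makes up (bottom, stacked bars), for 3 mice per group. The 005 tumors stand out by the share of Ccl8, 33.4% to 49.9%, and 005 replicate 2 by a summed TPM of 5519.

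**Figure D2:**
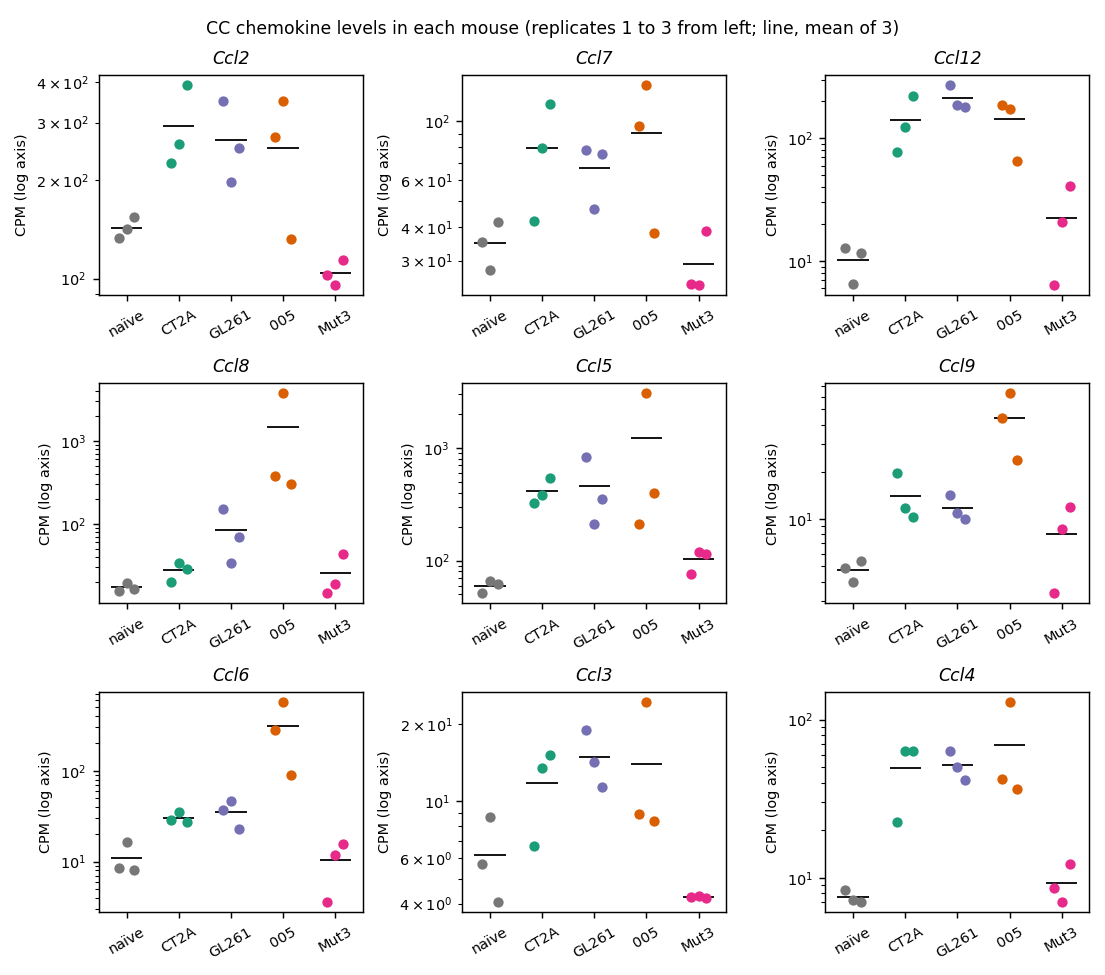
CPM (log axis) of each of the 9 CC chemokine genes in naïve brain, CT2A, GL261, 005 and Mut3, with 1 point per mouse (replicates 1 to 3 from left) and a line at the mean of 3. Ccl8 in 005 lies between 300 and 3751 CPM, above the highest level in the other groups (151 CPM), and for Ccl12 and Ccl4 each CT2A, GL261 and 005 tumor lies above each naïve brain and each Mut3 tumor.

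Of the Ccr2 ligands, Ccl2 was the most abundant in naïve brain by mean TPM (63.6), and Ccl7 (15.9) and Ccl12 (12.3) were lower. Ccl12 was called higher in CT2A, GL261 and 005. In bulk tissue fewer cells of a type and less RNA per cell cannot be told apart, which holds for every difference below. A call below is an adjusted p (edgeR, Benjamini-Hochberg) under 0.05 with a log2 fold change of 1 or more in size. Ccl2, an attractant of monocytes, was at 133, 142 and 154 CPM in naïve brain, 226, 258 and 392 in CT2A, 350, 198 and 251 in GL261, 271, 349 and 132 in 005, and 102, 95.6 and 114 in Mut3. By mean, the order was CT2A (292 ± 88.0 CPM; SD, n = 3, as for all means below), GL261 (266 ± 77.4), 005 (251 ± 110), naïve brain (143 ± 10.4) and Mut3 (104 ± 9.42). Neighbors in this order overlapped, except that each Mut3 tumor lay below each naïve brain. Ccl2 rose in CT2A against naïve brain by a log2 fold change of 1.03 (SE 0.34, adjusted p = 0.0261), while GL261 at 0.90 (adjusted p = 0.0669) and 005 at 0.81 (adjusted p = 0.123) did not pass the test. The 005 value passed without 005 replicate 3 (0.50 to 1.05 over the single omissions). The CT2A call was lost without naïve brain replicate 1, CT2A replicate 3, GL261 replicate 3 or 005 replicate 3 (log2 fold change of 0.77 to 1.23 over all 15 single omissions), and in log2(TPM + 1) the difference was 0.01. Mut3 was lower in Ccl2 than CT2A by a log2 fold change of -1.49 (SE 0.34, adjusted p = 0.0108), than GL261 by -1.35 (SE 0.34, adjusted p = 0.0165) and than 005 by -1.27 (SE 0.34, adjusted p = 0.0193). Against naïve brain, Ccl2 in Mut3 was at -0.46 (adjusted p = 0.297), and on the TPM scale at -1.24, which passed (limma, adjusted p = 0.00194). Single omissions that ended the Mut3 calls were CT2A replicate 3 (against CT2A, where the log2 fold change ranged from -1.67 to -1.22), Mut3 replicates 1 and 2 (against GL261, -1.56 to -1.22, and 005, -1.52 to -0.96) and 005 replicate 2 (against 005, -0.96).

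Ccl7, the neighbor of Ccl2 and a ligand of further CC receptors besides Ccr2, was highest by mean in 005 and lowest in Mut3. It was at 35.1, 27.7 and 41.9 CPM in naïve brain, 42.1, 79.3 and 117 in CT2A, 78.3, 47.0 and 75.2 in GL261, 96.3, 138 and 38.0 in 005, and 24.5, 24.3 and 38.8 in Mut3. The order by mean was 005 (90.6 ± 50.0 CPM), CT2A (79.3 ± 37.2), GL261 (66.9 ± 17.2), naïve brain (34.9 ± 7.13) and Mut3 (29.2 ± 8.31), and of neighbors only GL261 and naïve brain did not overlap. Ccl7 was called higher in CT2A than in naïve brain (log2 fold change 1.19, SE 0.45, adjusted p = 0.0473; 0.11 in log2(TPM + 1), not called) and lower in Mut3 than in CT2A (-1.44, SE 0.45, adjusted p = 0.0486) and 005 (-1.63, SE 0.45, adjusted p = 0.0219). Both calls on CT2A lay near the threshold. The call against naïve brain was lost in 9 of 15 single omissions (any naïve brain, CT2A replicate 2 or 3, GL261 replicate 2 or 3, 005 replicate 1 or Mut3 replicate 2; 0.81 to 1.499). That of Mut3 against CT2A was lost in 11 of 15, all but those of CT2A replicate 1, 005 replicates 2 and 3 and Mut3 replicate 3 (-1.81 to -1.06). The call against 005 was lost without 005 replicate 2 (-1.20) and without Mut3 replicate 1 or 2 (-1.99 to -1.20). In 005 against naïve brain, Ccl7 was at 1.38 (adjusted p = 0.06), and passed without CT2A replicate 1 or 005 replicate 3 (0.95 to 1.68).

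Ccl12, a rodent ligand of Ccr2, rose in CT2A, GL261 and 005. It was at 12.6, 6.48 and 11.6 CPM in naïve brain, 77.4, 124 and 223 in CT2A, 275, 188 and 182 in GL261, 188, 174 and 66.0 in 005, and 6.38, 20.6 and 40.8 in Mut3. Each tumor of CT2A, GL261 and 005 lay above each naïve brain and each Mut3 tumor, while Mut3 replicate 1 lay at 6.38 CPM, below the naïve brains, and replicates 2 and 3 above them. GL261 was highest by mean (215 ± 51.8 CPM), followed by 005 (143 ± 66.9), CT2A (142 ± 74.6), Mut3 (22.6 ± 17.3) and naïve brain (10.3 ± 3.31), and of neighbors only CT2A and Mut3 did not overlap. Against naïve brain Ccl12 rose by a log2 fold change of 3.78 in CT2A (SE 0.64, adjusted p = 0.000967), of 4.39 in GL261 (SE 0.66, adjusted p = 0.000623) and of 3.80 in 005 (SE 0.64, adjusted p = 0.00227). In Mut3 it was 1.14 (SE 0.59, adjusted p = 0.137), a value that passed without Mut3 replicate 1 (1.62) and was 0.05 in log2(TPM + 1). Ccl12 was lower in Mut3 than in CT2A (-2.64, adjusted p = 0.00964), GL261 (-3.25, adjusted p = 0.00369) and 005 (-2.66, adjusted p = 0.00869). These calls and those of the other tumors against naïve brain held in all 15 single omissions. Without 005 replicates 2 and 3 together, the 005 value against naïve brain was 4.14 (adjusted p = 0.00138).

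Ccl8, the Ccr8 ligand, separated 005 from every other group. It was at 15.7, 19.4 and 16.5 CPM in naïve brain, 20.1, 33.8 and 28.5 in CT2A, 151, 33.8 and 69.8 in GL261, 382, 3751 and 300 in 005, and 14.5, 19.1 and 42.9 in Mut3. The lowest 005 tumor was thus above the highest tumor of the other lines, and the mean of 1477 ± 1969 CPM in 005 rests on replicate 2, at 3751 CPM. Behind 005 the order was GL261 (84.8 ± 59.99), CT2A (27.5 ± 6.91), Mut3 (25.5 ± 15.2) and naïve brain (17.2 ± 1.96), with neighbors that overlapped. In 005 the log2 fold change of Ccl8 was 6.42 against naïve brain (SE 0.98, adjusted p = 0.00186), 5.75 against CT2A (SE 0.95, adjusted p = 0.00471) and 4.12 against GL261 (SE 0.88, adjusted p = 0.0205), and Mut3 against 005 was at -5.85 (SE 0.95, adjusted p = 0.00167). Without 005 replicate 2 these were 4.31 (adjusted p = 0.00274), 3.63 (adjusted p = 0.00394), 2.01 (adjusted p = 0.0753) and -3.74 (adjusted p = 0.00137), so that the difference from GL261 no longer passed. It was also lost without GL261 replicate 2 or 3 (2.01 to 4.77 over the single omissions). With 005 replicate 1 alone, which is then assumed to vary like the other groups, the values were 4.42 against naïve brain, 3.76 against CT2A and 2.19 against GL261 (adjusted p = 0.098). In GL261, Ccl8 was at 2.30 against naïve brain (SE 0.82, adjusted p = 0.0556), and in CT2A at 0.68 (adjusted p = 0.515). By mean TPM, Ccl8 in CT2A (17.2) was below naïve brain (22.5).

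Ccl5, a ligand of Ccr1 that draws T cells, monocytes and eosinophils, was higher in CT2A, GL261 and 005 than in naïve brain. It was at 51.0, 65.5 and 61.4 CPM in naïve brain, 326, 380 and 536 in CT2A, 827, 213 and 352 in GL261, 211, 3080 and 402 in 005, and 76.2, 120 and 115 in Mut3. On the CPM scale each Mut3 tumor lay above each naïve brain and below each tumor of the other lines, and 005 replicate 2 stood apart as for Ccl8. The means were 1231 ± 1604 CPM in 005, 464 ± 322 in GL261, 414 ± 109 in CT2A, 104 ± 23.9 in Mut3 and 59.3 ± 7.48 in naïve brain, and the 3 highest groups overlapped. Ccl5 rose against naïve brain by a log2 fold change of 2.80 in CT2A (SE 0.78, adjusted p = 0.0117), of 2.97 in GL261 (SE 0.78, adjusted p = 0.0166) and of 4.38 in 005 (SE 0.84, adjusted p = 0.00403). Mut3 stood at 0.81 (SE 0.74, adjusted p = 0.401), and at -0.03 in log2(TPM + 1), with mean TPM of 73.8 in Mut3 and 76.6 in naïve brain. Without 005 replicate 2 the 005 value was 2.38 (adjusted p = 0.0102), and without replicates 2 and 3 it was 1.78 (adjusted p = 0.0319). The GL261 call was lost without naïve brain replicate 1 or GL261 replicate 1 (2.38 to 3.31). In log2(TPM + 1) the CT2A value was 1.79 and did not pass (limma, adjusted p = 0.0514). Mut3 was lower than 005 (-3.57, SE 0.80, adjusted p = 0.00845; -1.57 and adjusted p = 0.0338 without 005 replicate 2; -0.97 and adjusted p = 0.334 without replicates 2 and 3). The values of Mut3 against CT2A (-1.999, adjusted p = 0.0935) and GL261 (-2.16, adjusted p = 0.0608) did not pass, although the groups did not overlap.

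Ccl4, made by activated macrophages and T cells, rose in the same models as Ccl12. It was at 8.36, 7.22 and 7.03 CPM in naïve brain, 22.5, 63.2 and 63.6 in CT2A, 63.4, 50.4 and 41.5 in GL261, 42.3, 130 and 36.5 in 005, and 8.61, 7.05 and 12.3 in Mut3. Each tumor of CT2A, GL261 and 005 lay above each naïve brain and each Mut3 tumor, while Mut3 and naïve brain overlapped (means of 9.32 ± 2.70 and 7.54 ± 0.721). Ccl4 was higher than in naïve brain by a log2 fold change of 2.72 in CT2A (SE 0.52, adjusted p = 0.00185), 2.77 in GL261 (SE 0.52, adjusted p = 0.00241) and 3.20 in 005 (SE 0.53, adjusted p = 0.00207; 2.39 without 005 replicate 2), and Mut3 was at 0.31 (adjusted p = 0.646). Mut3 was lower than CT2A (-2.41, adjusted p = 0.00584), GL261 (-2.47, adjusted p = 0.00539) and 005 (-2.89, adjusted p = 0.00253; -2.08 without 005 replicate 2). All of these calls of Ccl4 held in each of the 15 single omissions.
Ccl3, its neighbor and a ligand of Ccr1, was at 5.71, 8.72 and 4.06 CPM in naïve brain, 6.72, 13.5 and 15.1 in CT2A, 19.1, 14.2 and 11.4 in GL261, 8.96, 24.5 and 8.40 in 005, and 4.25, 4.28 and 4.22 in Mut3. Its lowest library held 15 counts, so the level in naïve brain is imprecise. With all samples, Ccl3 did not pass the test against naïve brain in any model (log2 fold change of 1.27 in GL261, 1.17 in 005, 0.93 in CT2A and -0.54 in Mut3). The 005 value passed without 005 replicate 3 (0.50 to 1.61), and the GL261 value without naïve brain replicate 2 or 005 replicate 2 (1.05 to 1.74). Ccl3 was lower in Mut3 than in GL261 (-1.80, SE 0.47, adjusted p = 0.0194) and 005 (-1.71, SE 0.47, adjusted p = 0.021). The first of these was lost without Mut3 replicate 1 or 2 (-1.93 to -1.71) and the second without 005 replicate 2 (-1.03) or any Mut3 tumor (-1.95 to -1.03).

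The Ccr1 ligands Ccl6 and Ccl9 were highest in 005. Ccl6 was at 8.57, 16.4 and 8.11 CPM in naïve brain, 28.8, 34.9 and 27.1 in CT2A, 37.3, 46.1 and 23.0 in GL261, 278, 578 and 88.8 in 005, and 3.58, 11.7 and 15.6 in Mut3. Each 005 tumor lay above each other sample, each CT2A and GL261 tumor lay above each naïve brain and Mut3 tumor, and naïve brain (11.04 ± 4.68) and Mut3 (10.3 ± 6.12) overlapped. In 005 the log2 fold change of Ccl6 was 4.83 against naïve brain (SE 0.68, adjusted p = 0.00177), 3.38 against CT2A (SE 0.63, adjusted p = 0.0098) and 3.15 against GL261 (SE 0.62, adjusted p = 0.0137). Mut3 was lower than 005 by -4.93 (SE 0.68, adjusted p = 0.00055). Without 005 replicate 2 these were 4.06, 2.60, 2.37 and -4.15, and all still passed. The difference from CT2A was lost without CT2A replicate 2 or 3 (2.60 to 3.79) and that from GL261 without GL261 replicate 1 or 3 (2.37 to 3.60). In CT2A and GL261, Ccl6 was at 1.46 (adjusted p = 0.0652) and 1.68 (adjusted p = 0.0567) against naïve brain.
Ccl9 was at 4.90, 3.99 and 5.41 CPM in naïve brain, 19.8, 11.8 and 10.3 in CT2A, 14.3, 10.99 and 9.95 in GL261, 44.3, 63.5 and 23.9 in 005, and 3.36, 8.68 and 11.96 in Mut3. Again each 005 tumor was above each other sample. Ccl9 rose against naïve brain in 005 (log2 fold change 3.20, SE 0.50, adjusted p = 0.00186; 2.84 without 005 replicate 2) and in CT2A (1.55, SE 0.48, adjusted p = 0.0187). It was higher in 005 than in GL261 (1.90, SE 0.46, adjusted p = 0.0405) and lower in Mut3 than in 005 (-2.45, SE 0.47, adjusted p = 0.00376). The CT2A call was lost without naïve brain replicate 1 or CT2A replicate 1 (1.22 to 1.77) and in log2(TPM + 1), where the value was 0.20. The difference between 005 and GL261 was lost in 11 of 15 single omissions, all but those of CT2A replicate 1, 005 replicate 3 and Mut3 replicates 1 and 3 (1.54 to 2.21).

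All 9 genes differed among the 5 groups in the test over all group means (adjusted p of 9e-05 for Ccl6 to 0.0231 for Ccl7), which 52.1% of all tested genes also passed. Against naïve brain, 6 of 9 were called higher in CT2A (Ccl2, Ccl7, Ccl12, Ccl5, Ccl9 and Ccl4), beside 19% of all tested genes. In GL261, 3 of 9 were called higher (Ccl12, Ccl5 and Ccl4), beside 14.6%. Under other rules, 8 had an unadjusted p under 0.05, DESeq2 called 7 and an edgeR fit of only the samples compared called 9. The shares over all tested genes here and below are those of the main edgeR fit. They do not apply to counts under other rules, whose shares are not given here. In 005 it was 6 of 9 (Ccl12, Ccl8, Ccl5, Ccl9, Ccl6 and Ccl4), beside 11.6%. An edgeR fit of only the 005 and naïve brain samples called 5, with a lowest adjusted p of 0.0488. In Mut3, 0 of 9 were called in edgeR, beside 37.8% of all tested genes called in either direction, and 0 had an unadjusted p under 0.05. DESeq2 also called 0, and log2(TPM + 1) called 1, the lower Ccl2. The 9 genes had a median log2 fold change of 1.46 for CT2A, 1.68 for GL261, 3.20 for 005 and 0.31 for Mut3, beside -0.04, -0.08, 0.01 and 0.11 over all tested genes. The values were above 0 for 9 of 9 genes in CT2A, GL261 and 005 on the CPM scale, and in Mut3 for Ccl12, Ccl8, Ccl5, Ccl9 and Ccl4. In log2(TPM + 1) they were above 0 for 7 of 9 in CT2A (not Ccl8 and Ccl3), 9 of 9 in GL261 and 005 and 1 of 9 in Mut3 (Ccl12). The 4 comparisons share the same naïve brains.

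**Figure D3:**
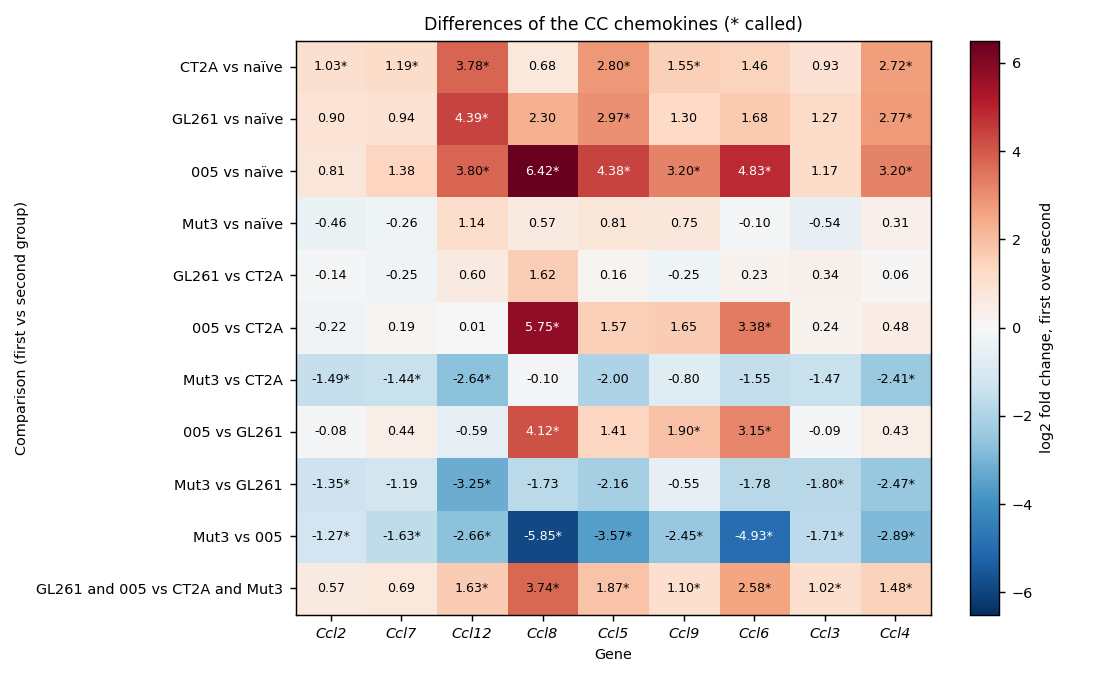
Log2 fold change (color and number) of each CC chemokine gene (columns) in each of the 11 comparisons (rows, first group over second), with an asterisk where the gene was called. The row of Mut3 against 005 carries 9 asterisks, and the rows of Mut3 against naïve brain and GL261 against CT2A carry none.

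Between tumor models, no difference of these genes passed for GL261 and CT2A: 0 of 9 were called in edgeR, beside 7.77% of all tested genes in either direction, 0 had an unadjusted p under 0.05 and DESeq2 called 0. The log2 fold changes of GL261 against CT2A ran from -0.25 (Ccl9) to 1.62 (Ccl8), with SEs of 0.34 to 0.80, so that larger differences than these values are within the error. Against CT2A, 2 of 9 were called higher in 005 (Ccl8 and Ccl6), beside 1.99%, and against GL261 3 of 9 (Ccl8, Ccl9 and Ccl6), beside 0.887%. In an edgeR fit of only the samples compared, these calls were all lost (0 of 9 in each, with lowest adjusted p of 0.078 and 0.0943), and DESeq2 called 3 in each (Ccl8, Ccl9 and Ccl6). Mut3 was lower than CT2A in 4 of 9 genes (Ccl2, Ccl7, Ccl12 and Ccl4), beside 6.61%, lower than GL261 in 4 of 9 (Ccl2, Ccl12, Ccl3 and Ccl4), beside 11.1%, and lower than 005 in 9 of 9, beside 14%. The median of the 9 genes was -1.49, -1.78 and -2.66 in these comparisons, against -0.02, -0.04 and -0.10 over all tested genes.
The study sorted the models into immunologically active (GL261 and 005) and inert (CT2A and Mut3) types from these same RNA data, so this contrast is not independent of the samples. Of the 9 genes, 7 were called higher in the active models, beside 12.6% of all tested genes. They were Ccl8 (log2 fold change 3.74), Ccl6 (2.58), Ccl5 (1.87), Ccl12 (1.63), Ccl4 (1.48), Ccl9 (1.10) and Ccl3 (1.02), and Ccl2 (0.57, adjusted p = 0.103) and Ccl7 (0.69, adjusted p = 0.128) did not pass. None of the 9 genes parted all active tumors from all inert tumors, and CT2A and GL261 overlapped in all 9. For Ccl12, Ccl5 and Ccl4 the means were 142, 414 and 49.7 CPM in CT2A and 215, 464 and 51.8 in GL261. Without 005 replicate 2, 4 of the 7 calls held (Ccl12, Ccl8, Ccl6 and Ccl4), with Ccl5 at 0.86, Ccl9 at 0.92 and Ccl3 at 0.68, and without 005 replicates 2 and 3, 3 held (Ccl12, Ccl8 and Ccl6). Other single omissions that ended a call were CT2A replicate 2, GL261 replicate 1 and Mut3 replicate 1 for Ccl5 (0.86 to 2.12) and for Ccl9 (0.92 to 1.36, also CT2A replicate 3). The call of Ccl3 was lost in 12 of 15, all but those of naïve brain replicate 3 and 005 replicates 1 and 3 (0.68 to 1.14).

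Ptprc and T cell transcripts were higher in CT2A, GL261 and 005 than in naïve brain, as the 9 chemokine genes were by log2 fold change. Ccl2 was highest by mean in CT2A, but CT2A, GL261 and 005 overlapped in Ccl2 and no difference between them was called. Ptprc was lower in each CT2A tumor than in each GL261 and 005 tumor, also without a call. The part of leukocytes in the differences of the chemokine genes was not tested. Ptprc was at 1.74 to 4.49 CPM in naïve brain, 19.5 to 37.4 in CT2A, 37.7 to 85.6 in GL261, 46.2 to 261 in 005 and 2.26 to 11.1 in Mut3. The summed level of 7 T cell genes was 3.26 to 5.41 CPM in naïve brain (Cd5 at 0), 20.9 to 48.8 in CT2A, 57.1 to 113 in GL261, 56.3 to 334 in 005 and 6.04 to 17.6 in Mut3 (Cd5 at 0), with 4, 4, 5 and 0 of the 5 tested called higher than in naïve brain in CT2A, GL261, 005 and Mut3 (beside 19%, 14.6%, 11.6% and 17.9% of all tested genes). Of 9 monocyte and macrophage genes, none of which was at 0 in any group, the summed level was 25.3 to 30.6 CPM in naïve brain, 249 to 343 in CT2A, 450 to 798 in GL261, 280 to 1241 in 005 and 410 to 821 in Mut3. Of these 9 genes, 6, 6, 7 and 3 were called higher in CT2A, GL261, 005 and Mut3. The myeloid sum in Mut3 thus overlapped that in GL261, while Ccl12, Ccl4 and Ccl5 did not, and Plac8 made up 50.2% of it. The sum of 7 microglia genes was 209 to 251 CPM in naïve brain, 145 to 167 in CT2A, 268 to 355 in GL261, 224 to 337 in 005 and 67.5 to 98.2 in Mut3. In the same order, the sum of 6 neuron genes was 3446 to 5400, 148 to 826, 584 to 1478, 134 to 2917 and 37.1 to 107 CPM. The labelled naïve brain thus held its neuron genes and little Ptprc. The sum of 5 eosinophil and mast cell genes was 6.49 to 93.1 CPM in 005, against at most 14.6 in the other groups (Prg2 at 0 in naïve brain). Cpa3 made up 61.0% of the mean sum in 005, and Siglecf and Epx did not pass the filter. Replicate 1 of 005 (6.49) lay within the range of CT2A (5.74 to 14.6).

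**Figure D4:**
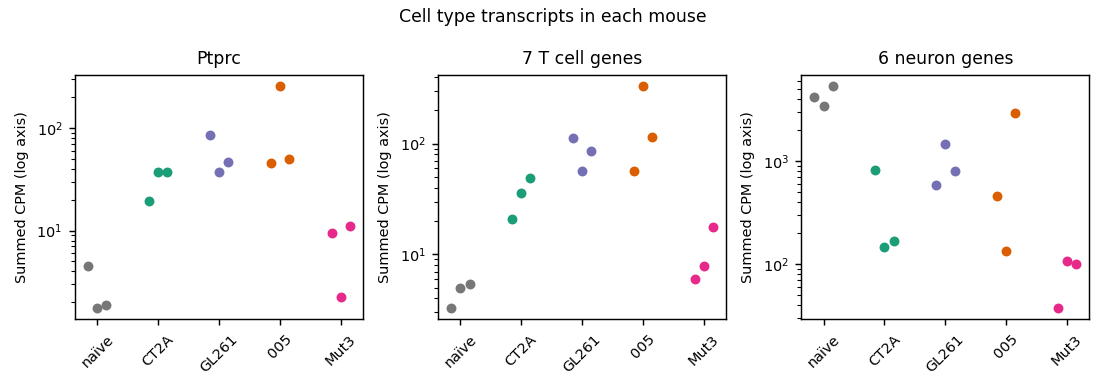
Summed CPM (log axis) of Ptprc, of 7 T cell genes and of 6 neuron genes in each mouse of the 5 groups, with 1 point per mouse. Leukocyte transcripts are lowest in naïve brain and Mut3 and highest in 005 replicate 2 (261 CPM of Ptprc), and neuron transcripts in 005 replicate 3 (2917 CPM) come near those of naïve brain.

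Relative to Ptprc, Ccl8 and Ccl6 were higher in each 005 tumor than in each CT2A and GL261 tumor. The ratio of the CPM of Ccl8 to that of Ptprc was 8.25, 14.4 and 5.98 in 005, 1.03, 0.905 and 0.767 in CT2A, and 1.76, 0.897 and 1.48 in GL261. It was 1.55, 8.44 and 3.87 in Mut3 and 3.50, 11.1 and 8.71 in naïve brain, so 005 was not set apart from these by the ratio. Ccl6 gave 1.77 to 6.01 in 005, 0.729 to 1.475 in CT2A and 0.436 to 1.22 in GL261, and 005 overlapped Mut3 and naïve brain. Ccl3 went the other way, with 0.0940 to 0.194 in 005, 0.344 to 0.406 in CT2A and 0.223 to 0.378 in GL261. For Ccl4, Ccl7 and Ccl9 the ratios in 005 overlapped those in GL261. Ccl5 gave 16.7, 10.2 and 14.4 in CT2A, 9.66, 5.66 and 7.47 in GL261 and 4.56, 11.8 and 8.03 in 005, which put each CT2A tumor above each GL261 tumor although the CPM of Ccl5 overlapped. Ccl12 gave 3.31 to 6.01 in CT2A, 3.21 to 5.00 in GL261, 0.667 to 4.08 in 005, 0.679 to 9.11 in Mut3 and 2.82 to 6.14 in naïve brain, which overlapped. Ccl2 gave 29.7 to 81.3 in naïve brain, 10.3 to 42.2 in Mut3 and 6.90 to 11.6 in CT2A, and Mut3 overlapped both naïve brain and CT2A. It gave 4.09 to 5.33 in GL261 and 1.34 to 5.86 in 005, which overlapped too. Ptprc in naïve brain rests on 7 to 22 counts and in Mut3 replicate 2 on 18, so the ratios there are imprecise. These ratios are descriptions and were not tested.

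**Figure D5:**
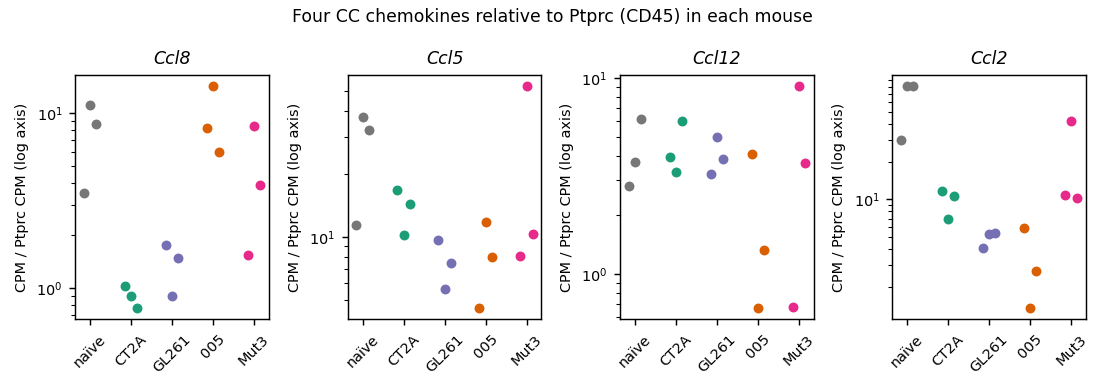
Ratio of the CPM of Ccl8, Ccl5, Ccl12 and Ccl2 to the CPM of Ptprc (log axis) in each mouse of the 5 groups, with 1 point per mouse. Ccl8 lies between 5.98 and 14.4 in 005 and at no more than 1.76 in CT2A and GL261, and Ccl2 lies between 29.7 and 81.3 in naïve brain, overlapping Mut3.

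Among the receptors and scavengers of these ligands, Ccr1 rose in CT2A, GL261 and 005, Ccr2 in GL261 and 005, and Ackr1 fell in CT2A and Mut3. Of 8 such genes 5 were tested, and Ccr3, Ccr8 and Ackr2 did not pass the filter. Ccr1, the receptor of Ccl3, Ccl5, Ccl6 and Ccl9, was at 0.612, 0.996 and 1.62 CPM in naïve brain, 11.2, 16.9 and 11.8 in CT2A, 43.9, 6.47 and 18.2 in GL261, 27.4, 46.0 and 7.19 in 005, and 0.895, 1.51 and 1.32 in Mut3. It rose against naïve brain on the log2 scale by 3.64 (CT2A), 4.41 (GL261) and 4.65 (005), with adjusted p of 0.00345, 0.00194 and 0.00241, and was at 0.23 in Mut3 (adjusted p = 0.841), with 3 counts in the lowest naïve brain. Ccr1 in Mut3 was lower than in CT2A (-3.41), GL261 (-4.18) and 005 (-4.42). Ccr2, the receptor of Ccl2, Ccl7 and Ccl12 on monocytes, rose in GL261 (3.06, adjusted p = 0.0313) and 005 (3.78, adjusted p = 0.0178), and the value of 2.37 in CT2A did not pass (adjusted p = 0.0517). It was at 0 to 2.86 CPM in naïve brain, so these folds are imprecise. Ccrl2, an atypical receptor that does not signal to recruit cells, was not called in any comparison. Ackr1, which carries chemokines across the endothelium of venules, was at 35.9 to 39.9 CPM in naïve brain, 10.6 to 21.96 in CT2A, 17.8 to 26.7 in GL261, 13.2 to 41.0 in 005 and 1.85 to 5.28 in Mut3. Ackr1 fell in CT2A (-1.17, adjusted p = 0.0478) and Mut3 (-3.60, adjusted p = 0.000284) and was lower in Mut3 than in each other model (-2.43 to -3.18). Ccr8, the receptor of Ccl8, did not exceed 0.415 CPM or 3 counts in any sample, and Ccr3 did not exceed 1.21.

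The rest of the CC family was sparse: of 20 further ligands and receptors, 19 were found in the files and 11 were tested. Against naïve brain, 3 of the 11 were called higher and 1 lower in CT2A, beside 19% and 20.2% of all tested genes. The numbers were 4 and 1 in GL261 (beside 14.6% and 7.77%), 4 and 0 in 005 (beside 11.6% and 1.05%), and 2 and 2 in Mut3 (beside 17.9% and 19.8%), where they were near the share over all genes. Ccl11, an attractant of eosinophils through Ccr3, was called higher in all 4 models, at 2.64 to 11.4 CPM against 0.204 to 0.541 in naïve brain, which held no more than 2 counts per library. Ccl17, a ligand of Ccr4, rose in GL261 (log2 fold change 1.97) and 005 (1.87). Ccl1, another Ccr8 ligand, was called higher in GL261 (3.39 to 6.22 CPM) and 005 (1.42 to 14.6), and Ccr7, which guides dendritic cells and naïve T cells to lymph nodes, in CT2A (0.155 to 1.68), GL261 (2.10 to 3.15) and 005 (1.65 to 7.002). Both held at most 2 counts in each naïve brain, so no fold is given. Ccl25, an attractant of thymocytes, rose in CT2A (2.15) and Mut3 (1.46). Ccl27a, known from skin, fell in CT2A (-3.14), GL261 (-2.14) and Mut3 (-4.17). Ccl24 was called lower in Mut3, where the 3 tumors held at most 1 count each, against 0.498 to 3.79 CPM in naïve brain.

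The expression patterns of the 9 genes over the 15 samples had much in common. Pearson's r of log2 CPM between pairs of the 9 ranged from 0.50 to 0.94 over 36 pairs (median 0.78), a description of samples that share groups and leukocyte content. The closest pairs were Ccl9 with Ccl6 (r = 0.94) and Ccl2 with Ccl7 (r = 0.93), both pairs of neighbors on the chromosome. Other neighbors within a block ranged from 0.57 (Ccl12 with Ccl8) to 0.90 (Ccl3 with Ccl4). Ccl12 with Ccl4, from different blocks, was at 0.92. Over all tested genes, the closest to Ccl12 were C3ar1 (0.97), Bcl2a1b (0.97) and Ms4a4c (0.97), to Ccl5 Tlr2, Gpr18 and Tgfbi (0.96 each), and to Ccl4 Cd48, Parp14 and Fcer1g (0.96 each). Ccl8 was nearest to H2-M2 (0.95), Wfdc17 (0.92) and Il10rb (0.92), and Ccl6 to Inpp5d (0.96), Cep85 (0.94) and Ccl9 (0.94). For Ccl2 the nearest were Tmsb10 (0.95), AW822252 (0.95) and Ccl7 (0.93), for Ccl7 Ccl2, Fosl2 (0.93) and Gtf3c6 (0.92), for Ccl9 Ccl6, Cep85 (0.93) and Gm156 (0.93), and for Ccl3 Tifab, Treml2 (0.93 each) and Cd274 (0.92).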

How the data were processed

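RNA was measured in 15 samples, 3 mice in each of 5 groups named by the sample labels. The authors aligned reads with STAR v2.4.2a to the GENCODE mouse genome and used Picard and RNA-SeQC, and the submitters' processing notes also name Salmon, DESeq2 1.18.1 and mm10. The authors deposited an estimated count per gene, without normalization, and TPM values scaled to 1000000 per sample. The annotation release and strand setting are not given in the sources used here, and 46201 of 46679 identifiers matched GENCODE M21.

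Rounded counts went into the quasi-likelihood test of edgeR 4.0.16 in R 4.3.3 (filterByExpr, TMM, all 15 samples, no covariate), after a test on simulated data. CPM uses the TMM-scaled total of the tested genes. A call is a Benjamini-Hochberg adjusted p under 0.05, over all tested genes, with a log2 fold change of 1 or more in size, and SE is the log2 fold change over the root of F. Correlations are over log2 CPM (prior count 2). Alternatives were DESeq2 1.42.0, limma 3.58.1 on log2(TPM + 1), library size, other filters, fits of only the samples compared and omission of each sample. The members and lists were chosen with earlier results of these data known. All 9 members are named, with their receptors except 1 that is not reported here, other CC genes where called, and the 3 nearest genes by r.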

Additional observations from a re-analysis of the deposited data

Results flagged for a closer look

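Of 18 checks of the 6 active or the 6 inert tumors for a sample far from the rest, 3 found one, each time 005 replicate 2 among GL261 and 005, where the critical value used flags about 1 in 20 groups by chance if checks are independent. These are not, since the genes share the library and GL261 and 005 are pooled. It held 3751 CPM of Ccl8, 3080 CPM of Ccl5 and 130.02 CPM of Ccl4, and the gap to the next tumor took 0.906, 0.785 and 0.712 of the whole range. Ptprc in the same library was 261 CPM, against at most 85.6 in the other GL261 and 005 tumors.

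Between pairs of tumor models, 22 of 54 differences of the 9 genes passed the edgeR test. Of all tested genes, 1.99% were called higher in 005 than in CT2A and 0.887% higher in 005 than in GL261. In Mut3, 6.61%, 11.1% and 14% were called lower than in CT2A, GL261 and 005. For GL261 against CT2A, where none of the 9 passed, 7.77% were called in either direction. In 005 against CT2A they were Ccl8 (log2 fold change 5.75) and Ccl6 (3.38), and in 005 against GL261 Ccl8 (4.12), Ccl9 (1.90) and Ccl6 (3.15). In Mut3 against CT2A they were Ccl2 (-1.49), Ccl7 (-1.44), Ccl12 (-2.64) and Ccl4 (-2.41), and in Mut3 against GL261 Ccl2 (-1.35), Ccl12 (-3.25), Ccl3 (-1.80) and Ccl4 (-2.47). In Mut3 against 005 they were Ccl2 (-1.27), Ccl7 (-1.63), Ccl12 (-2.66), Ccl8 (-5.85), Ccl5 (-3.57), Ccl9 (-2.45), Ccl6 (-4.93), Ccl3 (-1.71) and Ccl4 (-2.89).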

How the results depend on the processing

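No direction of a called difference was reversed under the alternatives run. The number of the 9 genes called against naïve brain was 6 in CT2A (2 in log2(TPM + 1), 3 to 7 when leaving out 1 sample), 3 in GL261 (7 in DESeq2, 5 without a filter, 9 in a fit of only the samples compared, 6 without 005 replicates 2 and 3, 2 to 6 leaving out 1 sample), 6 in 005 (6 to 9) and 0 in Mut3 (1 in log2(TPM + 1), 0 to 1). It was 0 for GL261 against CT2A (0 to 0), 2 for 005 against CT2A (0 with only the samples compared, 1 to 3), 4 for Mut3 against CT2A (7 with only the samples compared and 7 without 005 replicates 2 and 3, 2 to 6), and 3 for 005 against GL261 (0 with only the samples compared, 1 without 005 replicates 2 and 3, 0 to 3). For Mut3 against GL261 it was 4 (7 with only the samples compared, 8 without 005 replicates 2 and 3, 2 to 7), for Mut3 against 005 9 (4 with only the samples compared, 6 to 9), for the active against the inert models 7 (4 in log2(TPM + 1), 3 without 005 replicates 2 and 3, 4 to 7), and over the 5 groups 9 (7 to 9). The omission of both 005 replicates was chosen after seeing the data and assumes that the lone 005 sample varies like the other groups. A call on the adjusted p alone kept all 11 counts within 1.5 times. In the edgeR fits of only the samples compared that called 0, the lowest adjusted p was 0.078 for 005 against CT2A and 0.0943 for 005 against GL261, and DESeq2 called 3 in each. For 005 against naïve brain, the edgeR fit of only the samples compared called 5, with a lowest adjusted p of 0.0488. The cause of these shifts was not tested.

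Replicate numbers name different mice and do not pair them: 1 of 30 correlations between same-numbered samples was over 0.1 (-0.33 to 0.26), and 2 of 15 samples correlated best with their own number. With the replicate block, 1 gene was called for 005 against GL261 and 4 for the active against the inert models, and the other 10 counts stayed within 1.5 times.
Depth limits Ccl3 and Ccl9 in naïve brain (15 to 35 and 16 to 24 counts) and Ptprc there (7 to 22). In the main edgeR fit, p-values rest on 3 mice per group and on an estimate of the spread that all 5 groups share. The wide spread of the 005 tumors is therefore not estimated on its own there.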
